A study of Mus musculus with 19 samples.

Results

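The genes described here encode the histones, the proteins around which DNA is wound, and they were measured by RNA-seq in single mouse blastocysts with and without Upf2. They were chosen by symbol: every gene of the count table named Hist1h to Hist4h, H2af, H3f3 or H1f, other than those marked as pseudogenes by a -ps suffix, that reached 10 counts in 1 embryo or more. Of 84 such genes in the table, 56 met the count minimum and 28 did not. The 56 comprised 44 clustered genes (Hist1 to Hist4) and 12 single genes for histone variants, out of 17137 genes that met the same minimum. The rule used no comparison of the genotypes.

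Whole E3.25 blastocysts were sequenced, 1 embryo per library, in 2 groups. The 8 Upf2-null embryos (Upf2-/-) carried a deletion of exons 2 and 3 on both alleles, and the 11 controls were Upf2+/+ littermates. The deletion came from floxed Upf2 mice crossed to a line with Cre under the E2a promoter, so every embryonic cell carried it, and the deleted allele still encodes a truncated protein. Embryos of both genotypes came from heterozygous parents on a C57BL/6 background, from females of 4 to 8 weeks that were hormonally superovulated, and were cultured from the zygote stage in M16 medium to 90 to 94 h after hCG. Maternal Upf2 product from the heterozygous mother can have been present in both groups. Each number is a separate embryo, litters were not labelled, and P-values measure the spread between these embryos.

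Most histone protein of a dividing cell is made from the clustered genes, which lack introns, are transcribed in S phase and give mRNAs that end in a conserved stem-loop in place of a poly(A) tail. SLBP binds that stem-loop, and when DNA synthesis stops UPF1 joins SLBP to trigger rapid decay of these mRNAs, with terminal uridylation and the exonuclease ERI1. UPF1 is also the central helicase of nonsense-mediated decay (NMD), in which UPF2 activates it. Variant genes lie singly, mostly have introns and poly(A) tails, and supply histones outside S phase. The cDNA here was primed with oligo(dT), so a clustered gene is counted only through molecules with a run of A to prime on, and how many of its mRNAs that represents was not measured.

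The stem-loop was searched in the annotated RNAs to show which members carry this end and how far the annotation runs past it. The consensus of the histone 3′ stem-loop was searched on the transcribed strand of GENCODE M21 transcripts (GRCm38). It was present in 31 of 44 clustered members and in 1 of 12 variant members, H2afx, against 72 of 21901 protein-coding genes (0.329%), of which 29 were outside the 84 histone genes. It began 21 to 54 bases after the stop codon, with a median of 31. Of the 13 clustered members with no match, 7 have an annotated RNA that stops at the stop codon, so the window held no 3′ end to search. The 32 matches used 7 different stem-loops. The examples below show the common form in Hist1h2ae, shared by 17 members, the H4 forms in Hist1h4d, Hist1h4i and Hist1h4b, the single form in Hist2h2ac, and that of the variant gene H2afx. Capitals mark the 16-base match and lower case the 7 bases on each side.
Hist1h2ae, chr13:23570661-23570690, minus strand: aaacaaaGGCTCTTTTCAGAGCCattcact
Hist1h4d, chr13:23581943-23581972, plus strand: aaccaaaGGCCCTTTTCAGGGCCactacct
Hist1h4i, chr13:22040959-22040988, minus strand: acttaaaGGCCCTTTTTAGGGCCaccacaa
Hist1h4b, chr13:23757359-23757388, plus strand: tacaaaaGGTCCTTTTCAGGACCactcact
Hist2h2ac, chr3:96220411-96220440, minus strand: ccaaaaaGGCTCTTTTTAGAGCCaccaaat
H2afx, chr9:44335233-44335262, plus strand: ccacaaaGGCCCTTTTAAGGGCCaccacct
The stem pairs within each are kept where the letters differ, and the CTTTT run of the loop side is the same in all because the consensus fixed it. In 18 clustered members the annotation continues at least 100 bases past the stem-loop and in 13 it ends sooner. H2afx is annotated 822 bases past it, and its mRNA is known in both a stem-loop form and a polyadenylated form.

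Of the clustered members, 38 lie in the Hist1 cluster on chromosome 13 (21716422 to 23934851), 3 in Hist2 on chromosome 3, 2 in Hist3 on chromosome 11 and 1, Hist4h4, on chromosome 6. They comprise 5 genes for the linker histone H1, 11 for H2A, 11 for H2B, 9 for H3 and 8 for H4. The 12 variants are spread over chromosomes 1, 3, 6, 9, 10, 11, 13, 15 and X. Promoter windows of 300 bases from RefSeq (GRCm38.p6), matched for 38 clustered and 11 variant members, were searched on both strands. Hist1h2bc and H2afx were among the members without a matched window, so their promoters were not searched. The octamer ATTTGCAT was found in 6 of 10 H2A and 4 of 9 H2B promoters and in none of the clustered H1, H3 or H4 promoters. It was in 1 of 11 variant promoters (9.09%), that of H3f3b, and in 1.97% of 27025 genes. Some H2A and H2B genes lie head to head, so that their windows can share sequence. TATAAA was found in 63.2% of clustered promoters, 9.09% of variant promoters and 15.7% of all, and CCAAT in 86.8%, 72.7% and 41.1%.

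Libraries held 4056072 to 5993745 counts after removal of PCR duplicates, and no gene exceeded 4884 counts in any embryo. Control embryo 5 had the fewest detected genes (14522), and control embryo 2 had the highest CPM of all embryos at 11.3% of the tested genes. Counts of Upf2 itself were 64.3 to 123 CPM in Upf2-null embryos and 37.2 to 87.8 CPM in controls, and they sum over all exons, so they do not check the deletion. Of 10 trophectoderm and 10 epiblast markers all were tested, and their summed CPM ran from 1264 to 1865 and from 458 to 663 in Upf2-null embryos, against 829 to 1903 and 556 to 1000 in controls. Of 10 primitive endoderm markers 9 were tested (854 to 1109 CPM in Upf2-null embryos, 818 to 1093 in controls). Of 10 cumulus and granulosa cell markers only Amhr2 met the minimum. The part of the epiblast sums in the histone levels was not tested. A difference per library cannot separate the number of cells in an embryo from the RNA per cell.

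No histone gene passed the threshold between Upf2-null and control blastocysts. By edgeR's quasi-likelihood test at a Benjamini-Hochberg adjusted P under 0.1, 0 of 56 members were called, where 33 of all 17137 genes (0.193%) were called, 30 higher (0.175%) and 3 lower (0.0175%) in Upf2-null embryos. At an unadjusted P under 0.05 there were 2 members, Hist1h2bc and H2afb2, against 12.5% of all genes (5.15% higher, 7.38% lower), and 8.23% of those with a mean of at least 10 counts. H2afb2 met the count minimum only through the 1 Upf2-null embryo in which it was counted, and its P carries no weight. DESeq2 called 0 members, with 1 under 0.05 before adjustment, against 1.2% (0.694% higher, 0.504% lower) of the 14696 genes it gave an adjusted P and 8.19% of all 17137, and limma voom with quality weights called 1, Hist1h2bc, with 5 under 0.05, against 0.654% (0.514% higher, 0.14% lower) and 10.4% of all genes. The CPM of the genotypes overlapped for all 56 members, where 0.0934% of the tested genes did not overlap.

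The abundant variant genes gave narrow bounds. For 8 of the 12, those with a mean of at least 100 counts per embryo, the standard error of the log2 fold change ran from 0.07 to 0.23. Apart from H1f0, every 95% interval of these 8 lay between -0.37 and 0.29 on the log2 scale, or 0.772-fold to 1.22-fold. These intervals rest on the counts left after removal of PCR duplicates. H2afz had 739 to 825 such counts in all 19 embryos, while library totals ran from 4056072 to 5993745. Whether duplicate removal compressed the counts of abundant genes, and with them these bounds, was not tested. The summed CPM of the 12 variants was 1397 to 2002 in Upf2-null embryos, with a mean of 1682 ± 187 (SD, n = 8), and 1479 to 2088 in controls, with a mean of 1722 ± 175 (SD, n = 11). The means differed by less than either SD.

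**Figure D1:**
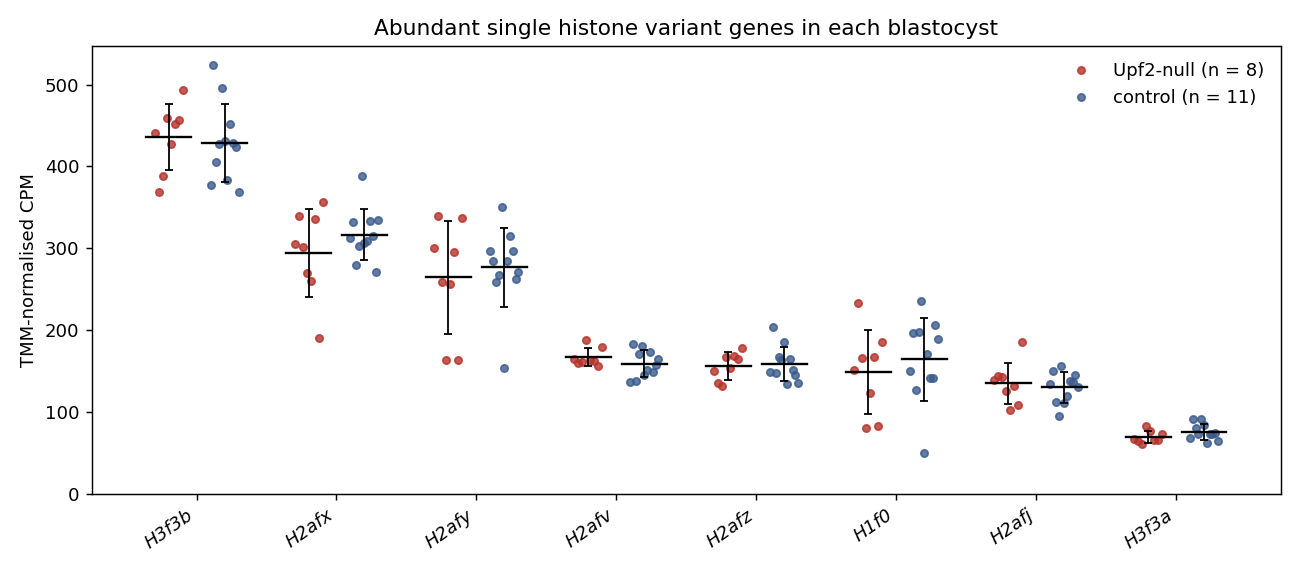
CPM (TMM-normalised counts scaled to a common library total) of the 8 abundant histone variant genes in each blastocyst, with Upf2-null embryos (red, n = 8) left of controls (blue, n = 11). Bars give the mean and SD, and for every gene the points of the 2 genotypes overlap.

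H3f3b and H3f3a encode the same protein, H3.3, which is deposited outside replication by HIRA and by DAXX with ATRX. H3f3b had 369, 446 and 493 CPM (lowest, median, highest) in Upf2-null embryos, against 369, 427 and 524 in controls, a log2 fold change of 0.02 (SE 0.07, adjusted P = 0.966 by edgeR). H3f3a had 60.3, 66.6 and 82.5 CPM in Upf2-null embryos, against 61.6, 72.9 and 91.3 in controls, with a log2 fold change of -0.12 (SE 0.11, adjusted P = 0.795). Their ranges nearly coincide. Together the H3.3 genes made up 97.7 to 99.5% of the CPM of all H3 members in Upf2-null embryos and 95.5 to 99.3% in controls. This share is of oligo(dT)-primed cDNA without correction for length, so it is not the share of H3 mRNA in the embryo.

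H2afz and H2afv encode the H2A.Z proteins, which sit at promoters and around transcription start sites. H2afv had 156, 163 and 188 CPM in Upf2-null embryos, against 136, 158 and 183 in controls (log2 fold change 0.07, SE 0.07, adjusted P = 0.829 by edgeR), and 7 of 8 Upf2-null embryos were above the control median. H2afz had 131, 159 and 179 CPM in Upf2-null embryos, against 135, 151 and 203 in controls (log2 fold change -0.03, SE 0.09). The spread within a genotype was larger than these differences. H2afz changed sign when some embryos were left out.

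H2afx, whose product is phosphorylated around DNA breaks, had the highest level per length of all members, at 222 CPM per kb of exon over the 19 embryos. Its CPM was 190, 304 and 356 in Upf2-null embryos, against 271, 313 and 388 in controls, with a log2 fold change of -0.10 (SE 0.10, adjusted P = 0.791 by edgeR). Upf2-null embryo 7 was the lowest of all embryos and the others lay within or close to the control range. H2afj, which encodes H2A.J, had 103, 135 and 185 CPM in Upf2-null embryos, against 95.5, 134 and 156 in controls (log2 fold change 0.05, SE 0.11).

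The macroH2A gene H2afy and the linker histone gene H1f0 varied most among the abundant ones. H2afy had 164, 277 and 339 CPM in Upf2-null embryos, against 154, 284 and 350 in controls (log2 fold change -0.07, SE 0.15), and H1f0 had 80.1, 158 and 233 CPM in Upf2-null embryos, against 49.4, 170 and 236 in controls (log2 fold change -0.14, SE 0.23). The same 3 embryos were lowest for both genes. In Upf2-null embryos 4 and 7 H1f0 was at 80.1 and 83.3 CPM and in control embryo 6 at 49.4 CPM, while the next lowest embryo had 123. H2afy was at 164, 164 and 154 CPM in these 3 embryos, and the next lowest had 256. Their summed S phase genes, 28 in all, stood at 4828, 4464 and 4485 CPM, within ranges of 4464 to 6556 in Upf2-null embryos and 4485 to 7090 in controls, so that Upf2-null embryo 7 and control embryo 6 were also the lowest of their genotype there. Whether this has a part in the variant levels was not tested.

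The 4 remaining variants were scarce. H1foo, the linker histone of the oocyte, had 0, 3.32 and 10.8 CPM in Upf2-null embryos and was at 0 in 3 of them, against 0.257, 5.11 and 26.3 CPM in controls, where none was at 0 (log2 fold change -0.93, SE 0.89, adjusted P = 0.81 by edgeR). The 9 tested oocyte markers, H1foo among them, summed to 4.07 to 43.1 CPM in Upf2-null embryos and 9.05 to 87.1 CPM in controls, and their part in the H1foo level was not tested. H1fx averaged 3.99 ± 2.78 CPM in Upf2-null embryos and 3.47 ± 2.54 in controls, and H2afy2, the second macroH2A gene, 3.65 ± 3.12 and 2.62 ± 2.69 (SD, n = 8 and 11). H2afb2, an X-linked gene of the testis H2A.B family, had 12 counts in Upf2-null embryo 4 and 0 in the other 18 embryos, so its unadjusted P under 0.05 (adjusted P = 0.271 by edgeR) rests on 1 library. That library also brought the gene over the count minimum, so no fold is given.

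The clustered genes together gave far fewer counts than the variants. On average they held 0.0197% of the counts in Upf2-null embryos and 0.0182% in controls, where the variants held 0.17% in both. Per kb of exon the median variant had 55.9 CPM and the median clustered gene 2.34, and the 7 highest of the 56 members were all variants. Of the clustered CPM, H2B genes held 28.1%, H4 genes 28%, H2A genes 24.5%, H1 genes 14.1% and H3 genes 5.32%. Hist1h2bc, Hist1h4d, Hist1h2ae and Hist1h4i alone held 54.3%, and 36 of the 44 had a mean under 5 CPM. Counts per gene depend on where the annotation ends, and several H2A, H2B and H4 copies are near-identical in their coding sequence, so that reads shared between copies may be lost or split and levels of single copies are uncertain.

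**Figure D2:**
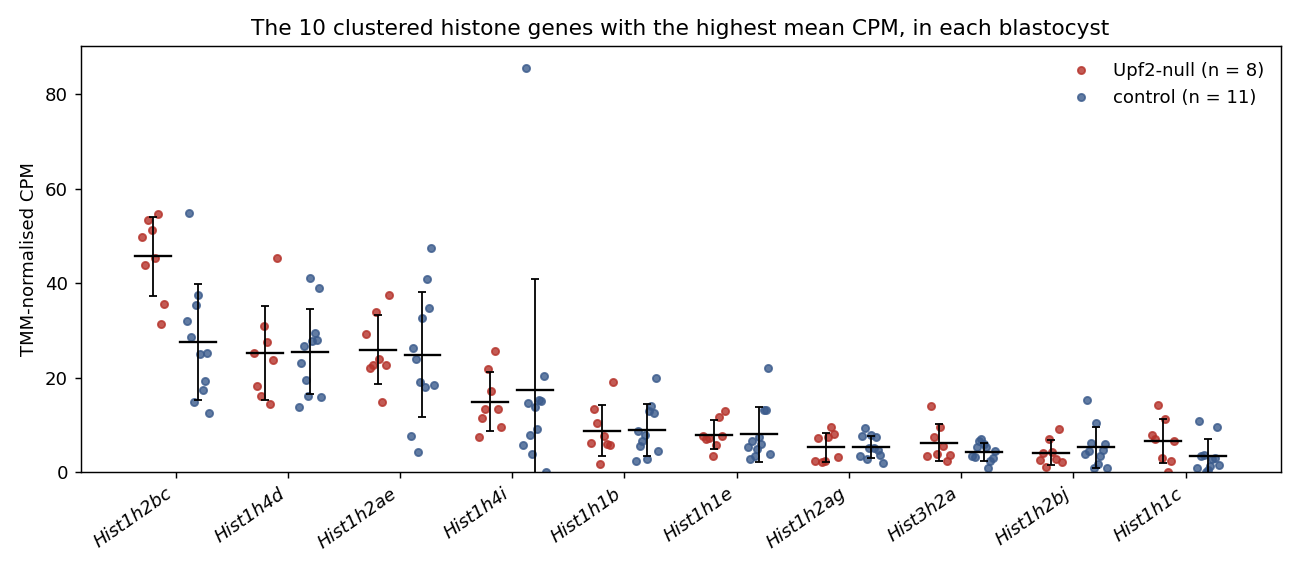
TMM-normalised CPM of the 10 clustered histone genes with the highest mean, in each blastocyst, Upf2-null embryos (red, n = 8) left of controls (blue, n = 11), with mean and SD (lower ends stop at 0). For Hist1h2bc all 8 Upf2-null embryos lie above the control median of 25.2 CPM, and control embryo 2 stands at 85.7 CPM for Hist1h4i.

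Hist1h2bc, an H2B gene, was the clustered member with the lowest P. Its CPM was 49.9, 43.9, 53.3, 51.4, 45.3, 54.6, 31.3 and 35.7 in Upf2-null embryos 1 to 8, and 31.9, 54.8, 28.6, 14.8, 35.4, 37.5, 25.1, 17.4, 19.3, 25.2 and 12.6 in control embryos 1 to 11. All 8 Upf2-null embryos were above the control median of 25.2, and 1 control, embryo 2, was above every Upf2-null embryo. The mean was 45.7 ± 8.44 CPM in Upf2-null embryos and 27.5 ± 12.2 in controls (SD, n = 8 and 11), a log2 fold change of 0.73 (SE 0.25, 95% interval 0.22 to 1.24). The adjusted P was 0.262 by edgeR, 0.139 by DESeq2 and 0.0417 by limma voom with quality weights, so that only the last tool called it. Leaving out single embryos, the edgeR adjusted P ran from 0.185 to 0.334. Over the alternatives of all tools the adjusted P ran from 0.0417, by limma voom, to 1, by edgeR with the replicate block. The annotated Hist1h2bc RNA has 2 exons and runs 742 bases past the stop codon, with no stem-loop match.

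The other 3 abundant clustered genes overlapped throughout. Hist1h2ae (H2A) had 14.8, 23.4 and 37.6 CPM in Upf2-null embryos, against 4.23, 24 and 47.4 in controls (log2 fold change 0.06, SE 0.35), and Hist1h4d (H4) had 14.4, 24.5 and 45.4 CPM, against 13.7, 26.7 and 41.1 in controls (log2 fold change -0.02, SE 0.27). Hist1h4i (H4) had 7.32, 13.3 and 25.6 CPM in Upf2-null embryos, against 0, 13.7 and 85.7 in controls. Its highest control, embryo 2, held 333 counts and control embryo 11 held none. The log2 fold change was -0.22 (SE 0.64), and it was 0.49 without control embryo 2. The linker gene Hist1h1b averaged 8.74 ± 5.37 CPM in Upf2-null embryos and 8.86 ± 5.44 in controls, and the H2A gene Hist1h2ag 5.26 ± 3.07 and 5.35 ± 2.39 (SD, n = 8 and 11).

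Among the scarce clustered genes none passed. Of the 44 clustered members, 34 reached the count minimum in both genotypes, 3 only in Upf2-null embryos (all 3 with a log2 fold change above 0) and 7 only in controls (6 below 0), so for these the minimum itself helped to set the direction. Hist1h3h and Hist1h2aj reached it only in Upf2-null embryos, and Hist1h2bg and Hist1h3f only in controls. The H3 gene Hist1h3h had 0 to 3.59 CPM in Upf2-null embryos and 0 to 0.85 in controls (log2 fold change 1.56, SE 0.92, adjusted P = 0.558 by edgeR), and Hist1h2aj, annotated as an unprocessed pseudogene of H2A type, had 0 to 3.39 and 0 to 1.26 (1.12, SE 0.78). On the low side, the H2B gene Hist1h2bg held 12 counts when the Upf2-null libraries were pooled, against 64 in the pooled controls (log2 fold change -1.98, SE 1.06, adjusted P = 0.492). Hist2h2ac, an H2A gene, had 0.174 to 2.99 CPM in Upf2-null embryos and 0 to 5.23 in controls (-1.23, SE 0.79). The H3 gene Hist1h3f had 3 counts in 1 Upf2-null embryo and 28 counts over 4 of the controls. Values of this size amount to a few reads per embryo.

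Across the 44 clustered members the median log2 fold change was -0.22, with 16 above 0 and 28 below, and across the 12 variants it was -0.002, with 6 above and 6 below. Over all tested genes the median was -0.02, and 47.7% lay above 0. The clustered median rested on the scarce genes and on control embryo 2: among the 34 members that reached the minimum in both genotypes it was -0.20, among the 16 with a mean of at least 10 counts it was -0.02, and without control embryo 2 it was 0.04 over all that were tested. Without H2afb2 the variant median was -0.03. By type, the clustered median was 0.67 for H1 (5 genes), 0.14 for H2A (11), -0.27 for H2B (11), -0.78 for H3 (9) and -0.45 for H4 (8), and no member of any type passed by edgeR. The members that reached the minimum in 1 genotype only, 3 in Upf2-null embryos and 7 in controls, are all H2A, H2B or H3 genes. For these types the minimum itself helped to set the median. All 8 H4 values were below 0 in this fit, but Hist1h4d and Hist1h4i changed sign under other settings, and for the other 6 only DESeq2 and limma voom were examined, which also gave values below 0. The intervals show how little the scarce genes allow: those of 39 of 44 clustered members reached a 2-fold change in at least 1 direction, and those of 22 reached it in both. For most clustered members these embryos therefore did not exclude a change of 2-fold or more in at least 1 direction, and smaller changes could not be told either.

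**Figure D3:**
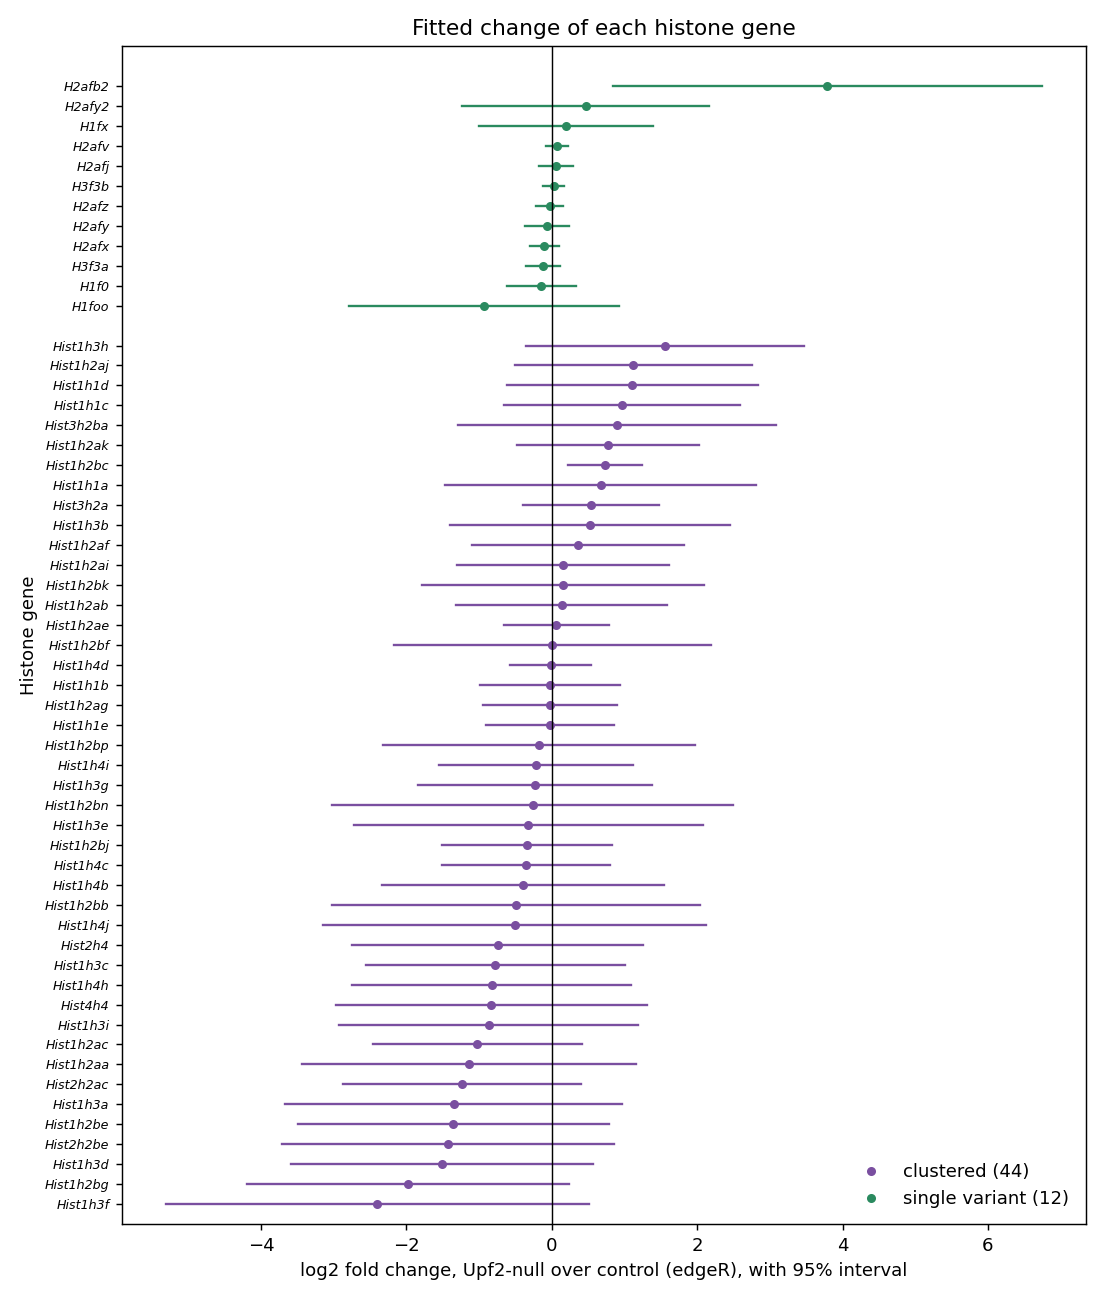
Log2 fold change of each histone gene, Upf2-null over control, with its 95% interval from edgeR, ordered within the 44 clustered (purple) and 12 variant (green) genes. The abundant variants have narrow intervals around 0 and most clustered genes have wide ones. The value of H2afb2 rests on 12 counts in 1 embryo.

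Grouped by annotated end, the 18 clustered members that continue at least 100 bases past the stem-loop had a median log2 fold change of -0.34 and summed to 102 ± 19.2 CPM in Upf2-null embryos and 105 ± 46.2 in controls (SD, n = 8 and 11). The 13 that end sooner had a median of -0.34 and sums of 23.8 ± 7.67 and 29.8 ± 21.6 CPM. The 13 with no match had a median of 0.15 and sums of 68.4 ± 5.09 CPM in Upf2-null embryos and 48.7 ± 18.1 in controls, most of it Hist1h2bc. In none of the 3 groups did a member pass the threshold by edgeR. All 3 groups include members that reached the count minimum in 1 genotype only, which helped to set their direction.

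The summed clustered CPM overlapped between the genotypes and differed in how widely embryos were spread. It ran from 171 to 233 CPM in Upf2-null embryos (mean 194 ± 19.3, SD, n = 8) and from 98.6 to 370 CPM in controls (mean 184 ± 80.7, SD, n = 11). Of the 11 controls, 5 lay below the lowest Upf2-null embryo, 3 above the highest and 3 within their range. The SD was 9.95% of the mean in Upf2-null embryos and 43.9% in controls, and 33% in the 10 controls without embryo 2. For the variant sum the same share was 11.1% in Upf2-null embryos and 10.1% in controls. The difference in spread was not tested, since the pattern was first seen in these embryos.

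**Figure D4:**
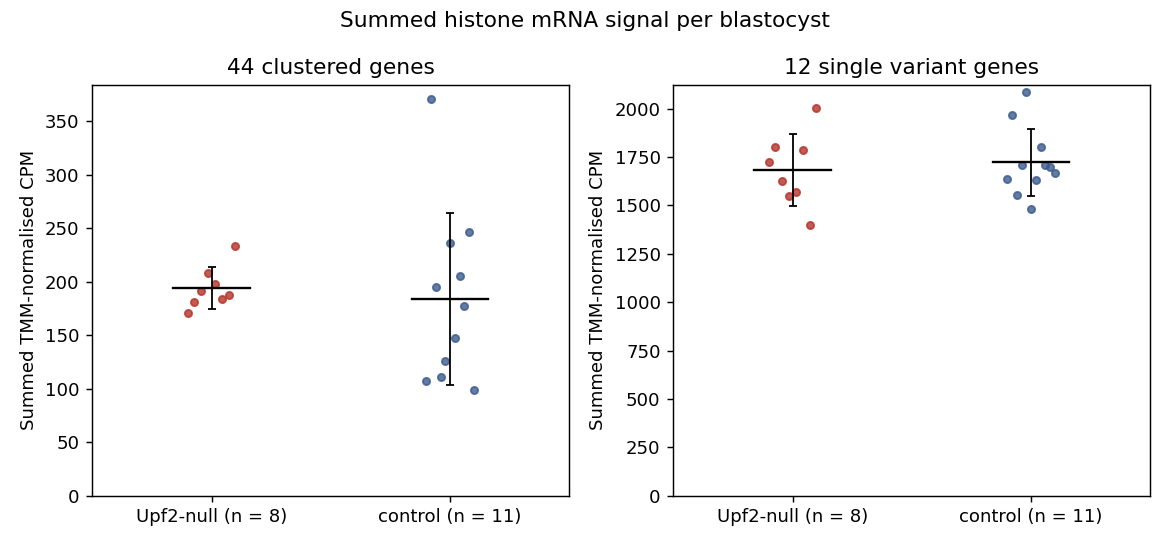
Summed TMM-normalised CPM of the 44 clustered genes (left) and the 12 variant genes (right) per blastocyst, Upf2-null (red, n = 8) left of control (blue, n = 11), with mean and SD. Clustered sums of the Upf2-null embryos lie between 171 and 233 CPM, inside the control range of 98.6 to 370.

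Control embryo 2 set the top of that range. It had the highest CPM of all 19 embryos at 15 of 44 clustered members (34.1%), where it was highest at 11.3% of all tested genes, and 1 of the 44 had no count in it. Its clustered H4 genes summed to 138 CPM and its H2B genes to 123 CPM, where the Upf2-null embryos had at most 65.1 and 74.9. Its S phase genes summed to 6824 CPM (within the control range), its trophectoderm markers to 1058 CPM and its epiblast markers to 919 CPM. At the other end, control embryo 5 had no count at 22 of the 44. Whether stage, cell type share or library quality has a part in these sums was not tested.

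The spread of a gene between embryos of a genotype followed its count. edgeR's biological coefficient of variation had a median of 1.26 for the 28 clustered members with a mean under 10 counts, 0.902 for the 13 from 10 to 100 and 0.41 for the 3 at 100 or more. Over all genes in the same ranges it was 2.18, 0.928 and 0.315. The 8 abundant variants had a median of 0.177, below that of all genes with at least 100 counts. The median of their mean counts was 793, and genes of matched count were not compared. These coefficients rest on the counts left after removal of PCR duplicates, of which H2afz had 739 to 825 per embryo. Library totals ran from 4056072 to 5993745. Whether duplicate removal compressed the counts of abundant genes was not tested, so the low median does not show a small spread between embryos.

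**Figure D5:**
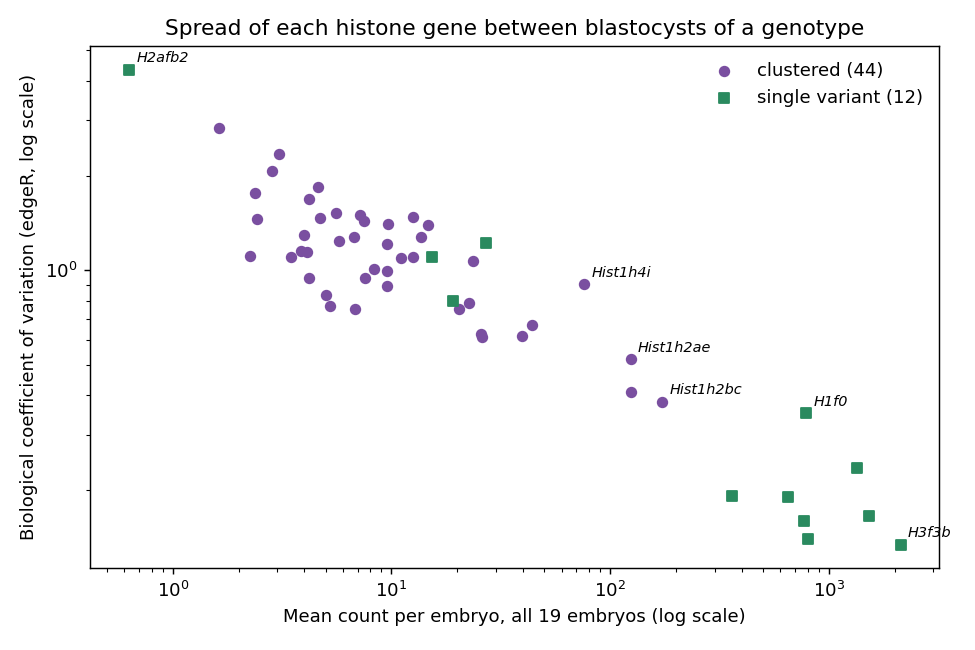
Biological coefficient of variation of each histone gene (vertical, log scale) against its mean count over the 19 embryos (horizontal, log scale), for 44 clustered (purple circles) and 12 variant genes (green squares). The abundant variants sit at the lower right with the smallest coefficients, and Hist1h4i lies above its neighbours. Whether removal of PCR duplicates lowered the coefficients of abundant genes was not tested.

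The merged transcript assembly of the study, which pools embryos and holds no values per embryo, was searched for models absent from the reference at these genes. Such a model overlapped an exon on the same strand at 8 of 44 clustered members and at 8 of 12 variants. Counted gene by gene, these were 10 models at clustered members and 38 at variants, of which 14 at H2afv. A model that overlaps several members is counted at each of them, so 10 and 38 can exceed the number of different models. At 3 clustered members, Hist1h1e, Hist1h2bn and Hist1h3d, and at 2 variants, H2afv and H3f3b, a model ran at least 100 bases past the annotated gene end. Those of Hist1h1e, Hist1h2bn and Hist1h3d had up to 3, 4 and 2 exons. The furthest model at Hist1h1e ran 35170 bases past its end, to the same end as the furthest model counted at Hist1h2be. It may be 1 model counted at both genes, so it does not show a longer Hist1h1e RNA. Hist1h1e and Hist1h2be also overlap each other on the same strand in the annotation, and 21 of 56 members overlap some other gene, for which reads without strand cannot be assigned.

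Genes that make, process and remove histone mRNA were then read from the same fit. Their lists were written from textbook knowledge, with earlier results of these data known. Of 24 genes for processing of histone mRNA, 0 passed by edgeR, 9 lay above 0 and 15 below, and the median log2 fold change was -0.05. Slbp, the stem-loop binding protein, had 259, 273 and 311 CPM in Upf2-null embryos, against 226, 264 and 340 in controls (0.06, SE 0.07). Npat, the coactivator of clustered histone genes in S phase, had 52.9, 65.8 and 109 CPM, against 39.4, 65.4 and 123 in controls (0.02, SE 0.19). At an unadjusted P under 0.05 by edgeR the list held 2 of its 24 genes, against 12.5% of all tested genes. Coil, which encodes coilin, averaged 141 ± 21.4 CPM in Upf2-null embryos and 114 ± 25.3 in controls (adjusted P = 0.324), and Sympk, the scaffold of the cleavage complex, 4.35 ± 2.08 and 8.35 ± 3.78 (adjusted P = 0.332, SD, n = 8 and 11). The next in order were Srrt, at 100 ± 25 and 84.3 ± 25.2 CPM, and the cap-binding gene Ncbp1, at 162 ± 50.6 and 205 ± 47.8 CPM. DESeq2 and limma voom also called 0 genes of this list.

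Of 26 genes for decay of histone mRNA, including NMD factors, 1 passed by edgeR, where 0.175% of all genes passed in that direction. Pnrc2, whose product links UPF1 to decapping in human cells, rose in Upf2-null embryos. It had 145, 181 and 214 CPM, against 54, 94 and 156 in controls, and all 8 Upf2-null embryos were above the control median. The log2 fold change was 0.75 (SE 0.16, adjusted P = 0.092 by edgeR, 0.0052 by DESeq2, 0.0228 by limma voom). It lost the call when any of 13 of the 19 embryos was left out, and kept it when the embryo left out was number 1 or 3 of the Upf2-null group or number 2, 5, 6 or 9 of the controls, with adjusted P from 0.0485 to 0.175. Upf2 itself had a log2 fold change of 0.66 (SE 0.18, adjusted P = 0.185 by edgeR, 0.0416 by DESeq2, 0.0228 by limma voom), and 8 of 8 Upf2-null embryos exceeded the control median.

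Upf1, shared by both decay pathways, had 6.75, 41.4 and 69.4 CPM in Upf2-null embryos, against 13.5, 23.2 and 49.2 in controls (0.61, SE 0.36, adjusted P = 0.544 by edgeR). Its Upf2-null embryos held both the lowest and the highest values. Eri1, the exonuclease that trims the stem-loop, had 129, 194 and 248 CPM in Upf2-null embryos, against 164, 225 and 285 in controls (-0.19, SE 0.11, adjusted P = 0.567), and the exosome nuclease gene Dis3l 0, 5.71 and 18.3, against 0.221, 14.9 and 21.4 (-1.19, SE 0.76, adjusted P = 0.608). In the list 15 genes lay above 0 and 11 below, with a median of 0.08.

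Of 29 genes for histone chaperones and deposition, 0 passed by edgeR, by DESeq2 or by limma voom, and the median was -0.09. Lowest in P were Chaf1b and Rbbp4, both of the CAF-1 complex that deposits new H3 and H4 behind the replication fork. Chaf1b averaged 170 ± 29.7 CPM in Upf2-null embryos and 200 ± 20.4 in controls (log2 fold change -0.23, SE 0.09, adjusted P = 0.284), and Rbbp4 121 ± 26.5 and 150 ± 28 (-0.31, SE 0.14, adjusted P = 0.345, SD, n = 8 and 11). These 2 were the only ones of the 29 with an unadjusted P under 0.05 by edgeR, against 12.5% of all tested genes. On the high side, Hjurp, the chaperone of the centromeric H3 variant, averaged 212 ± 19.5 CPM in Upf2-null embryos and 167 ± 48.4 in controls (0.34, SE 0.17, adjusted P = 0.406), and Ubn1, of the HIRA complex, 49.8 ± 10.8 and 38.6 ± 13.7 (0.37, SE 0.23, adjusted P = 0.593). Of 28 S phase genes 0 passed by edgeR or DESeq2 and 1 by limma voom, Rpa2, where limma voom called 0.654% of all genes. The median of the 28 genes was -0.06. Their summed CPM averaged 5498 ± 874 in Upf2-null embryos and 5721 ± 786 in controls (SD, n = 8 and 11), a difference smaller than the spread within either genotype.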

How the data were processed

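Single E3.25 blastocysts, 8 Upf2-null and 11 control, were sequenced from oligo(dT)-primed cDNA (SMARTer Ultra Low Input). Alignment was by STAR 2.5.2a (GRCm38). After taking out PCR duplicates, the authors deposited raw counts per gene from featureCounts. Strand use in counting is not given in the sources used here. The deposited scaled table holds signal values, each a count times 1 factor per embryo. It was named as another unit and held no length correction, and 100% of its values gave whole reads (within 0.01), on which the count test was added after seeing the data and called 33 genes. Assembled models came from HISAT2 and StringTie.

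Symbols and exon lengths came from GENCODE M21 (40254 of 41388 genes matched). A gene entered the test if any embryo reached 10 counts (17137 did). The test was the robust quasi-likelihood test of edgeR 4.0.16, on TMM factors and without covariates, with Benjamini-Hochberg adjustment. CPM are TMM-normalised on tested-gene totals, and CPM per kb divide by the exon union. Intervals use the t distribution at 95%. DESeq2 1.42.0, limma 3.58.1, other scaling, filters, thresholds, a replicate block and leaving out embryos were alternatives. R 4.3.3 was used. No pair of embryos was a duplicate (chi-square per gene at least 10, over 83 pairs). The tests were checked on simulated data.

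Members, lists and tests were chosen with earlier results of these data known. Named members are those past the threshold, per class the 6 highest per kb and the 3 lowest P in each direction, and a fixed set of 10 variants; Hist1h2be, Hist1h2bn, Hist1h3d, Hist1h1e, Hist4h4 and Hist1h4b were named outside this rule after their values were seen. Of the lists, members past the threshold, the 2 lowest P in each direction, Upf1, Upf2, Slbp and Npat were named, and Amhr2 and Rpa2 were added after their values were seen.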

Additional observations from a re-analysis of the deposited data

Results flagged for a closer look

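Of 25 quantities examined in the 8 Upf2-null embryos for a single embryo apart from the rest by Dixon's 95% critical value, 2 were picked out. Upf2-null embryo 4 had 2.61 CPM for H2afb2 and 0.653 CPM for Hist1h3f, while the other 7 Upf2-null embryos had 0 for both genes. These values correspond to 12 and 3 counts. With all others at 0, any count in 1 embryo is picked out, and H2afb2 met the count minimum only through this embryo, so the usual chance rate of about 1 in 20 does not apply to them. The controls number 11 and were not examined in this way.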

How the results depend on the processing

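Over all genes, the 33 called became 11 at an adjusted P under 0.05, 176 with DESeq2, 112 with limma voom, 17 with upper quartile factors, 0 with the replicate block and 14 to 43 when single embryos were left out. No histone gene was called in any of these except Hist1h2bc by voom (1 member). Of the decay list, 0 were called at an adjusted P under 0.05, with the block or with upper quartile factors. Without control embryos 2 and 4 the number was also 0, and without single embryos 0 to 1. DESeq2 and voom each called 2 of the list, Pnrc2 and Upf2, the latter being the deleted gene itself. Of all genes DESeq2 called 1.2% and voom 0.654%. Of the 28 genes of the S phase list voom called 1, against the same share of all genes.

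The median of the clustered genes ran from -0.33 (without control embryo 11) to 0.04 (without control embryo 2). It was -0.04 without control embryos 2 and 4 and -0.02 with at least 10 counts in 8 embryos. The clustered sum differed by 2.01 to 29.2 CPM and the variant sum by -86.1 to 0.43 CPM when single embryos were left out.

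Of 1131 alternatives for 38 single genes, 54 turned the sign, in 12 genes, with adjusted P of at least 0.768. With the replicate block, log2 fold changes were -0.000644 for H3f3b, 0.278 for Hist1h4i, 0.0263 for Hist1h4d and 0.21 for Hist1h1b. The scaled table gave 0.42 for Hist1h4i and upper quartile factors 0.00819 for Hist1h4d. Voom gave 0.0383 for H2afz, 0.685 for Hist1h4i, -0.0453 for H1fx and -0.30 for H2afy2. Without control embryos 2 and 4, values were 0.0196 for H2afz, -0.0677 for Hist1h2ae and 0.45 for Hist1h4i. Leaving out single embryos gave -0.0655 to 0.464 for H1fx, -0.032 to 0.102 for H2afj, -0.134 to 0.0108 for H2afy, -0.0618 to 0.00813 for H2afz, -0.00946 to 0.0544 for H3f3b, -0.29 to 0.17 for Hist1h1b, -0.0566 to 0.196 for Hist1h2ae, -0.196 to 0.0977 for Hist1h2ag, -0.199 to 0.0678 for Hist1h4d, -0.37 to 0.49 for Hist1h4i and -0.10 to 0.14 for Npat. The cause was not tested.

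Embryos of the same number share only the number: their deviations correlated at -0.14 to 0.07 over 8 pairs, and 0 correlated best with their own number. Most clustered genes have a mean of fewer than 10 counts per embryo, and most have wide intervals. The part of depth in that width was not tested.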
